A study of Mus musculus with 10 samples.

Results

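Genes of the developing pituitary, and of the oral ectoderm from which it arises, were followed across 10 RNA-seq libraries of mouse trigeminal ganglia: Pitx1, Lhx3, Lhx4, Pomc, Hesx1, Cga, Six6 and Epcam. These 8 of the 55414 genes in the count tables were chosen by name, because earlier work on the same libraries had shown them to be high in single libraries. Their levels by library are therefore described here without a test. The anterior pituitary forms from Rathke's pouch, an infolding of the oral ectoderm that lies under the floor of the brain, near the midline and between the left and right trigeminal ganglia. The homeodomain factors Pitx1, Hesx1, Lhx3, Lhx4 and Six6 are needed for the pouch or its growth, and the hormone genes Cga and Pomc are among the first that its descendants switch on. The trigeminal ganglion holds sensory neurons that serve the face, and the glia around them.

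The libraries came from C57Bl6 mouse embryos at E13.5, mid-gestation. The Prdm12-/- group (knockout 16, 29, 42, 49 and 50) had lost Prdm12, a zinc finger gene needed for nociceptors, and the Prdm12+/+ group (wild-type 22, 24, 32, 35 and 45) had not. All 10 libraries carry the label Sox10 Venus+, and the part of Prdm12 that the mutant allele lacks is not stated in the labels. Ganglia were microdissected. The labels name no cell sorting but do not settle whether Venus+ cells were selected, and they do not say whether each library came from a separate embryo or what else the dissected tissue held. Library titles begin with F in the knockout and with K in the wild type, a prefix whose meaning is not given and whose part cannot be told apart from genotype. In bulk samples, fewer cells of a type and less RNA per cell cannot be told apart.

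Total counts lay between 27308300 and 33556000 in 8 libraries and were 13603700 in knockout 29 and 3258010 in knockout 49, the shallowest. Levels are given as CPM, a count divided by the TMM-scaled library total, in which a single count is 0.290 CPM in knockout 49. The limit that a count of 0 allows, 3 counts, is 0.869 CPM there, 0.236 CPM in knockout 29 and no more than 0.107 CPM in the other 8. Prdm12 ranged from 8.74 to 42.7 CPM over the knockout libraries and from 74.3 to 264 CPM over the wild-type libraries. Tubb3, a neuronal gene, was at 1009 CPM in knockout 49 (wild-type 45, 1501 CPM) and the glial gene Sox10 at 647 CPM (573 CPM). Both libraries thus held neuronal and glial transcripts, which Tubb3 and Sox10 alone do not assign to a particular ganglion.

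The promoters of the 2 hormone genes are shown because Pomc and Cga are the members that mark differentiating pituitary cells, while the homeodomain factors are the members that can bind TAAT-type sites. RefSeq's table (GRCm38.p6) matched 7 of the 8 genes with 8 windows, and Pitx1 was not matched. The 250 bases before the start are printed, with capitals for TAATTA, a homeodomain-type site that LIM homeodomain proteins can bind, and for TATAAA, the TATA box. The Pomc window is chr12:3954695-3954944 and the Cga window chr4:34893529-34893778, both on the plus strand.
Pomc: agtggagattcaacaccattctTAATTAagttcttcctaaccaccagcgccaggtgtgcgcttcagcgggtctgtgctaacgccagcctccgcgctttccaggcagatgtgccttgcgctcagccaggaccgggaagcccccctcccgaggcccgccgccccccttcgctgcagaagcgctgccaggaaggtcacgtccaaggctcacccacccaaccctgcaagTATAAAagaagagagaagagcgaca
Cga: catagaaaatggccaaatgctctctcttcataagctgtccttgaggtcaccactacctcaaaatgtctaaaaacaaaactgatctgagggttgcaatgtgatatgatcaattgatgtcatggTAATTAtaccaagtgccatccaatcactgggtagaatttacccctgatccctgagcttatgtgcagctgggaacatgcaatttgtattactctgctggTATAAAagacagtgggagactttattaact
TAATTA began 228 bases before the start of Pomc and 128 before that of Cga, and TATAAA began 25 and 30 bases before. Searched on both strands in 250-base windows, TAATTA (its own reverse complement) was present in 4.84% and TATAAA in 12.4% of 32851 promoters. TAATCC, the site preferred by Pitx proteins, was present in 6.25% of promoters and its letters were in none of the 8 windows. A match describes letters only and does not show binding.

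Knockout 49 was the highest of the 10 libraries for all 8 genes, and wild-type 45 was the highest of the remaining 9 for 7 of them, the exception being Lhx4. Over all 26723 genes with at least 10 counts in the 10 libraries together, knockout 49 was highest for 12.5%, and it was highest with wild-type 45 next for 2.30%. Since the genes were chosen for this pattern, the comparison describes them and is no evidence for it. Summed over the 8 genes, the level reached 513 CPM in knockout 49 and 57.8 CPM in wild-type 45. Knockout 16 followed with 20.2 CPM, of which Lhx4 made up 13.4, and the other 7 libraries lay between 2.29 and 10.6 CPM. Because knockout 49 was so shallow, the 2 libraries held similar numbers of reads behind these levels, 1772 and 1641 counts. The low depth of knockout 49 and its ganglion signal, the lowest of the 10 libraries, move with the result, and their part in it was not tested. One of these libraries is a knockout and the other a wild type.

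Pitx1, a paired-type homeodomain factor of the oral ectoderm and pituitary that also acts in jaw and hindlimb tissue, stood at 116 CPM in knockout 49 (402 counts, exact Poisson 95% interval 105 to 128). It was at 8.98 CPM in wild-type 45 (255 counts, 7.91 to 10.2), and at 0.711, 0.865, 0.285 and 0.140 CPM in knockout 16, 29, 42 and 50. In wild-type 22, 24, 32 and 35 it was at 0.167, 0.384, 0.242 and 0.171 CPM. Thus 2 libraries were far above the other 8, which overlapped between the genotypes.

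Six6, a homeodomain factor of the pituitary, hypothalamus and eye, showed the same order. The levels in knockout 49 and wild-type 45 were 86.6 and 10.9 CPM, against 0.326, 0.236, 0.285 and 0.210 CPM in knockout 16, 29, 42 and 50. The other wild-type libraries, 22, 24, 32 and 35, had 0.934, 0.224, 0.104 and 0.0683 CPM. Wild-type 22 was the highest of these 8, with 28 counts.

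Lhx3, the LIM homeodomain factor that specifies the pouch, reached 70.9 CPM in knockout 49 (245 counts) and 12.6 CPM in wild-type 45 (359 counts). Knockout 16 was next at 1.10 CPM (37 counts), while knockout 29 and 50 had no count and knockout 42 had 0.0711 CPM. Wild-type 22, 24, 32 and 35 had 0.0334, 0.0959, 0 and 0.137 CPM, or at most 4 counts each. Lhx3 also marks motor neurons and some interneurons of the spinal cord and hindbrain.

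Hesx1, a homeodomain repressor of the early pouch whose expression fades as cells differentiate, was the weakest of the factors. It had 11 counts in knockout 49 (3.19 CPM, 95% interval 1.59 to 5.70) and 22 in wild-type 45 (0.775 CPM, 0.485 to 1.17). The other 8 libraries had 0 to 3 counts each (0 to 0.102 CPM). Its level in the 2 highest libraries rests on few reads.

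Cga encodes the alpha subunit shared by the pituitary glycoprotein hormones. It had 20 counts in knockout 49 (5.79 CPM, 95% interval 3.54 to 8.94) and 24 in wild-type 45 (0.845 CPM, 0.541 to 1.26). Knockout 16 and 29 had 1 count each and the remaining 6 libraries had none. Intervals cover counting error only.

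Pomc encodes the precursor of ACTH and of the melanocyte-stimulating hormones. It was at 62.0 CPM in knockout 49 (214 counts) but at only 2.82 CPM in wild-type 45 (80 counts, 95% interval 2.23 to 3.51). Knockout 16, 29, 42 and 50 had 1.48, 2.12, 1.24 and 0.944 CPM, and wild-type 22, 24, 32 and 35 had 1.90, 2.46, 1.25 and 1.19 CPM. Pomc thus had counts in every library, and wild-type 45 overlapped wild-type 24 within the counting intervals.

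Epcam, the adhesion molecule of simple epithelia, is a marker of epithelium in general and not of the pituitary. Knockout 49 had 144 CPM (496 counts) and wild-type 45 had 19.4 CPM (552 counts). Levels of 3.08, 4.09, 2.7 and 1.57 CPM were found in knockout 16, 29, 42 and 50, and of 2.0, 2.24, 0.693 and 0.717 CPM in wild-type 22, 24, 32 and 35. The lowest Epcam levels were in wild-type 32 and 35, the libraries with the least jaw mesenchyme signal as well (summed level of 16 genes).

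**Figure D1:**
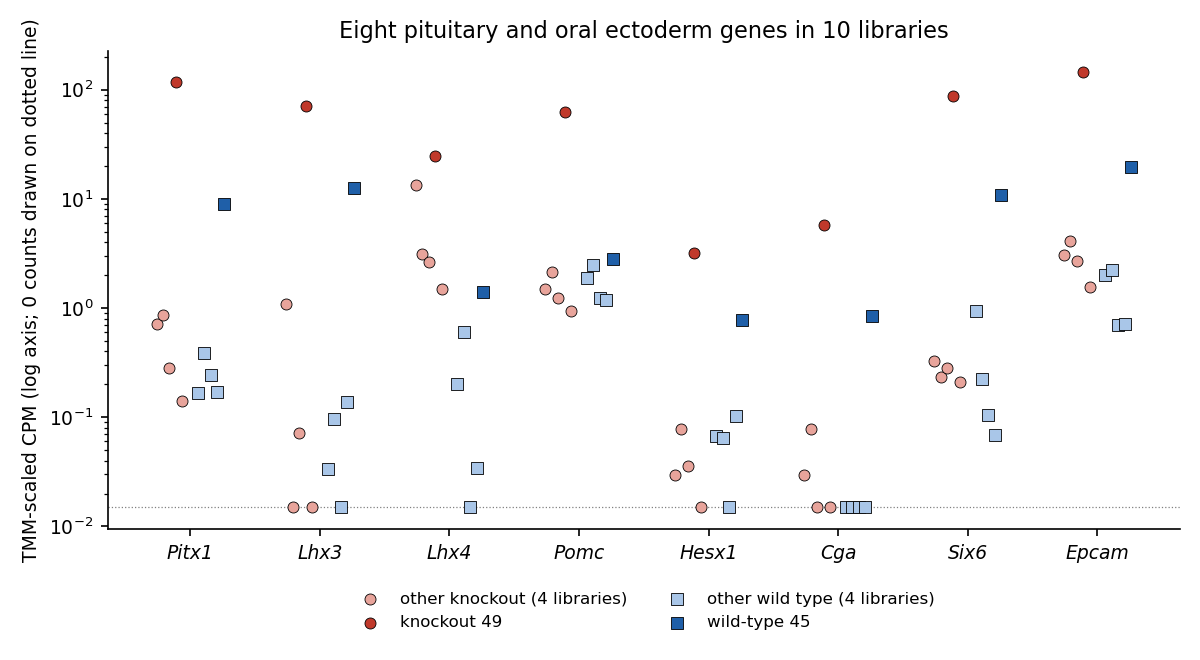
TMM-scaled CPM (log axis) of each of the 8 genes, with 1 point per library, circles for knockout and squares for wild type. Knockout 49 is the highest point for every gene and wild-type 45 the next highest for 7 of them, while for Lhx4 all 5 knockout points lie above all 5 wild-type points.

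The 8 genes did not keep 1 common ratio between the 2 high libraries. The level in knockout 49 over that in wild-type 45 had a median of 7.67 and ran from 4.11 (Hesx1) to 22 (Pomc), against a median of 0.997 (quartiles 0.861 and 1.17) over the 13536 tested genes with at least 10 counts in both. Lhx3, Six6, Epcam and Cga had ratios of 5.61 (95% interval 4.75 to 6.62), 7.96 (6.77 to 9.36), 7.39 (6.53 to 8.36) and 6.85 (3.59 to 12.9). Pitx1 had 13.0 (11.1 to 15.2), Lhx4 17.5 (11.9 to 26.1) and Pomc 22 (16.9 to 28.8). The intervals of Pitx1, Lhx4 and Pomc did not overlap that of Lhx3. Because each is a ratio of 1 library to another, it compares those libraries and not the genotypes.

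Over the 10 libraries, the log2 profile of each gene was close to the mean profile of the other 7 for all but Lhx4. Pearson's r was 0.98 for Pitx1, 0.98 for Epcam, 0.98 for Cga, 0.95 for Six6, 0.94 for Hesx1, 0.93 for Lhx3 and 0.90 for Pomc, but 0.61 for Lhx4. These values are set mostly by the same 2 libraries, and the low counts in the remaining ones add little.

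The wider set of pituitary genes was read from a list of 25 that holds none of the 8. Among those that mark its first lineages, some showed the same order of libraries. Pou1f1, the factor of the somatotroph, lactotroph and thyrotroph lineages, had 19 counts in knockout 49 (5.50 CPM) and 12 in wild-type 45 (0.423 CPM), against at most 0.157 CPM elsewhere. Tbx19, the T-box factor that activates Pomc in corticotrophs, had 28 counts (8.11 CPM) and 13 counts (0.458 CPM), with at most 0.133 CPM in the other libraries.

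The ratios of both genes between knockout 49 and wild-type 45 lay within the range of the 8 genes: 13.0 for Pou1f1 (95% interval 6.0 to 29.4) and 17.7 for Tbx19 (8.88 to 37.3). Tbx19 and Pomc, the pair of corticotroph genes, had the highest ratios of the pituitary genes with this order of libraries. Six3, a factor of the forebrain and eye as well as of the pituitary, had the lowest at 3.51 (2.79 to 4.39), with 33.0 CPM in knockout 49 against 9.40 CPM in wild-type 45, followed by knockout 29 at 4.09 CPM.

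Hormone genes that come on later had few or no counts in knockout 49, and of those named here only Tshb had counts in wild-type 45. Gh, growth hormone, had 1 count in knockout 49 and none in the other 9, and Prl and Lhb, prolactin and the luteinising hormone subunit, had none anywhere. Fshb had no count in knockout 49 or wild-type 45. Tshb, the thyrotropin subunit, had 3 counts (0.869 CPM) in knockout 49 and 47 counts (1.65 CPM) in wild-type 45. It was highest in wild-type 32, at 2.39 CPM.

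Of the 20 listed pituitary genes with at least 10 counts, knockout 49 was highest for 8, and wild-type 45 was next for 5, among them Pou1f1, Tbx19 and Six3. The list also holds genes that ganglia express. Pcsk2, a prohormone convertase, was lowest in knockout 49, at 34.2 CPM, and at 65.7 CPM in wild-type 45, among 41.7 to 100.2 CPM in the other 8. Chga, chromogranin A, had 86.3 and 75.2 CPM in these 2 libraries, inside the range of 52.4 to 128 CPM in the other 8.

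**Figure D2:**
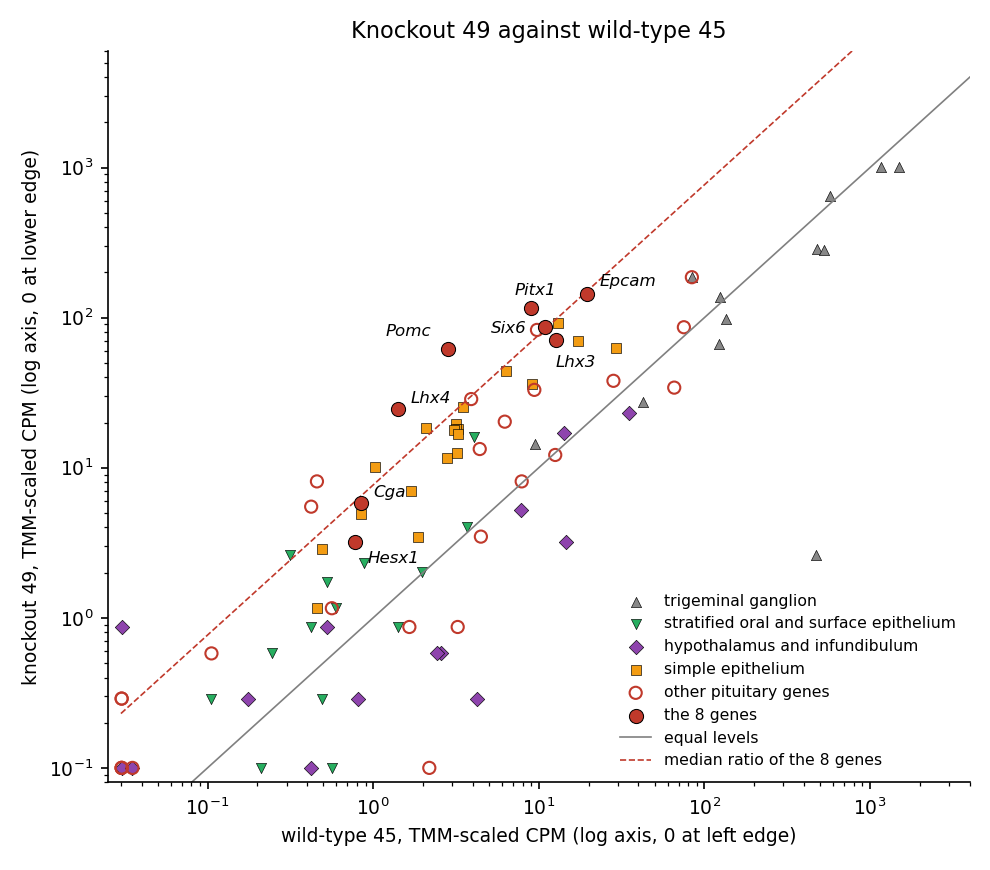
Level in knockout 49 (vertical) against wild-type 45 (horizontal), both TMM-scaled CPM on log axes, with 1 point per gene and colours for gene lists; zeros sit at the edges. The 8 genes and most simple epithelium genes lie near the dashed line (median ratio 7.67), while ganglion genes lie near the line of equal levels.

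Epithelial genes split by type. In a list of 20 genes of simple epithelia, knockout 49 was highest for 17 and wild-type 45 next for 13. Cldn6, a claudin of embryonic epithelia, reached 91.5 CPM in knockout 49 and 13.1 CPM in wild-type 45, with at most 2.2 CPM elsewhere. The splicing regulator Esrp1 had 44.0 and 6.30 CPM in these libraries and at most 1.57 CPM in the rest. For the epithelial transcription factor Grhl2 the values were 18.2, 3.17 and at most 0.551 CPM, and for keratin 18 (Krt18) 36.2, 9.15 and at most 2.37 CPM. Cdh1, E-cadherin, did not share the order, since knockout 42 was highest at 74.1 CPM, followed by knockout 49 at 63.1 and knockout 50 at 30.2 CPM, with wild-type 45 at 29.3 CPM. The median ratio of knockout 49 to wild-type 45 was 5.76 over the 19 listed genes with at least 10 counts in both.

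Stratified epithelium of the mouth and skin did not follow. Of 14 such genes, knockout 49 was highest for 2 and in none was wild-type 45 next. The basal keratins Krt5, Krt14 and Krt15 had 1.74, 0.579 and 1.16 CPM in knockout 49, and wild-type 45 had 0.528, 0.246 and 0.599 CPM. Knockout 29 was highest for all 3, at 12.9, 8.10 and 8.34 CPM. Among 10 tooth and oral placode genes with enough counts, 1 shared the order, and Shh was at 0.579 CPM in knockout 49 against 4.80 CPM in knockout 29. Among the 8 genes, the name oral ectoderm rests on Pitx1 and not on markers of the lining of the mouth.

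Hypothalamic genes, which mark the brain tissue above the pouch, were not highest in knockout 49. In 0 of 13 listed genes with enough counts was knockout 49 the highest library. Nkx2-1, a factor of the ventral hypothalamus and infundibulum, had 1 count in knockout 49 (0.290 CPM), 4.23 CPM in wild-type 45, and its highest level, 11.6 CPM, in knockout 29. Rax, a hypothalamic and retinal factor, was at 0.579, 2.57 and 2.52 CPM in the same libraries and at most 0.224 CPM in the others. Fgf10, which the infundibulum secretes and jaw mesenchyme also makes, was highest in wild-type 45, at 14.6 CPM, against 3.19 CPM in knockout 49. Wild-type 45 thus had counts of both pouch genes and these hypothalamic genes, whereas knockout 29 had Nkx2-1 and Rax with Lhx3 at 0 and Pitx1 at 0.865 CPM. The 1 and 2 counts of Nkx2-1 and Rax in knockout 49 lie under its floor of 3 counts.

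The lists of other tissues that lie near the ganglion did not share the order of knockout 49 and then wild-type 45. They could peak in other libraries, as the summed level of the choroid plexus genes did in wild-type 24, at 285 CPM. Knockout 49 was highest with wild-type 45 next in 0 of 15 jaw mesenchyme genes, 0 of 11 thyroid and pharyngeal genes, 0 of 9 inner ear genes, 0 of 8 lens and olfactory genes, 0 of 7 choroid plexus genes and 0 of 12 ganglion genes. The summed level of the 16 jaw mesenchyme genes was 201 CPM in knockout 49 (wild-type 45, 278 CPM), inside the range of 31.0 to 680 CPM in the other libraries. Jaw mesenchyme also makes Pitx1, and its part in the level of Pitx1 was not tested. Msx1, a mesenchymal and pouch-region homeobox gene, was highest in knockout 49 at 79.0 CPM, but knockout 16 was next at 28.3 CPM and wild-type 45 had 8.63 CPM. The summed level of the 12 ganglion genes was lowest in knockout 49, at 3763 CPM, with 5243 CPM in wild-type 45 and 4127 to 11924 CPM elsewhere.

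**Figure D3:**
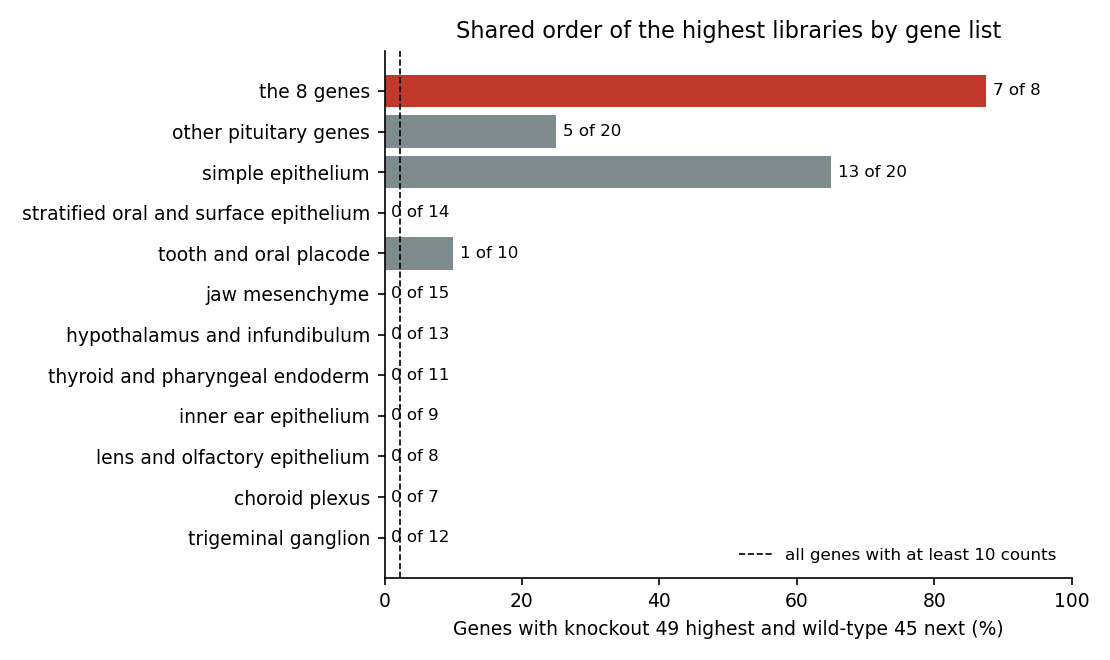
Percentage of each list's genes (at least 10 counts in all) for which knockout 49 was the highest library and wild-type 45 the next; the dashed line is the share over all 26723 such genes, 2.30%. The 8 genes, simple epithelium, other pituitary genes and the tooth and oral placode list (1 of 10 genes) lie above the line, and the other lists are at 0.

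The genes outside the 8 whose profile over the 10 libraries was most like their mean included epithelial genes such as Esrp1, Grhl2 and Cldn6. That mean profile is highest in knockout 49 and next highest in wild-type 45, so the choice by likeness largely fixes this order of libraries for the genes it picks. The 15 most similar among the tested genes had Pearson's r of 0.95 to 0.99. They included Dsc2, Rab25, Tnk1, Esrp1, Rph3al, Ap1m2, Irs4, Eps8l2, Grhl2, Arhgap8, Usp51, Dmrta2 and Cldn6. Dsc2, a desmosomal cadherin, was the closest (r = 0.99), with 13.3 CPM in knockout 49 against 2.57 CPM in wild-type 45 and at most 0.622 CPM elsewhere. Irs4, an insulin receptor substrate gene, had the highest level, 250.5 CPM in knockout 49 against 16.8 CPM in wild-type 45 and 0.205 to 2.64 CPM in the other 8. It also had the largest gap between the highest and the next library, 14.9-fold. That ranking covers tested genes outside the 8 with r of at least 0.9 and at least 5 CPM in their highest library.

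The filter that a test of genotype needs removes genes that are high in few libraries, because it asks for reads in at least 5 libraries. Of the 8 genes, 4 passed it (Pitx1, Lhx4, Pomc and Epcam) and Lhx3, Hesx1, Cga and Six6 did not. Among the 2068 other genes it removed that had at least 50 counts, the 15 with the highest r (0.92 to 0.98) included Spint1, Dsg2, Krt8, Esrp2 and Tbx19.

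Knockout 49 and wild-type 45 also shared genes that were not picked by their likeness to the 8. Outside the 8, 56 tested genes had at least 5 CPM and at least 8-fold their median of the other 9 libraries in knockout 49. For 37 of these (66.1%), Xist, which follows the sex of the embryo, among them, wild-type 45 was the highest of the other 9, followed by knockout 29 with 7 and knockout 16 with 6. Over all genes with enough counts, wild-type 45 was the highest of those 9 for 10.1%. The reverse count was small: 13 genes stood out in this way in wild-type 45, of which 6 had wild-type 32 next and 4 had knockout 49 next.

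Genes at least 8-fold above every other library were few. With at least 5 CPM, 7 tested genes met this in knockout 49, 6 in knockout 16 and none in the other 8 libraries. At 4-fold, the counts were 40 in knockout 49, 44 in knockout 16, 7 in knockout 29 and 0 to 3 in the others. Since wild-type 45 carried many of the same transcripts at a lower level, fewer of them stand out in knockout 49 against every library than against the median.

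The genotype comparison asks whether the genes differed between knockout and wild type. None of the 4 tested genes passed the threshold of edgeR's quasi-likelihood test (adjusted p under 0.05 over 18005 genes), where 0.467% of all tested genes did and 0.0944% did with a higher level in the knockout. At an unadjusted p under 0.05 there were 2 (Lhx4 and Pomc), with no share over all genes to set beside them, so nothing is read from that count. DESeq2 called 1 (Lhx4), where it called 637 over all genes, and gave no p for the other 3. Because these genes were picked for high single libraries, 1 of them a knockout, the fold changes below describe the libraries. Pitx1 averaged 23.7 ± 51.8 CPM over the knockout libraries and 1.99 ± 3.91 CPM over the wild-type libraries (SD, 5 per group), and its log2 fold change was 3.49 (SE 1.90). Pomc averaged 13.6 ± 27.1 and 1.92 ± 0.720 CPM (log2 fold change 2.71, SE 1.16), and Epcam 31.0 ± 63.0 and 5.02 ± 8.09 CPM (2.56, SE 1.42). In each case the knockout SD exceeded the mean.

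These differences turned with knockout 49. Without it, the log2 fold changes were -2.03 for Pitx1, -0.42 for Pomc and -0.81 for Epcam, and without wild-type 45 they were 6.51, 2.89 and 4.38. Without both libraries, Pitx1 no longer passed the filter, Pomc was at -0.25 (SE 0.37) and Epcam at 1.01 (SE 0.49), and neither passed the edgeR test (adjusted p = 0.848 and 0.554). Over the 4 remaining libraries of each group, Pomc averaged 1.45 ± 0.501 CPM (knockout) and 1.70 ± 0.600 CPM (wild type), and Epcam 2.86 ± 1.04 and 1.41 ± 0.823 CPM (SD). For both genes the ranges of the groups overlapped.

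**Figure D4:**
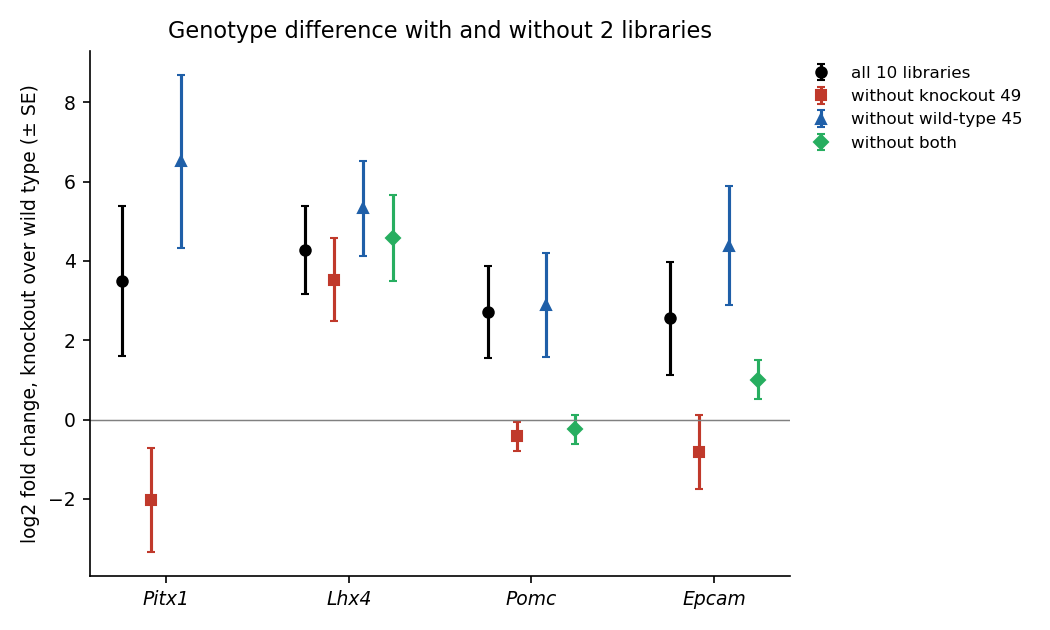
Log2 fold change of knockout over wild type, with its SE, for the 4 tested genes in fits with all 10 libraries, without knockout 49, without wild-type 45 and without both. Pitx1, Pomc and Epcam fall below 0 without knockout 49, while Lhx4 stays between 3.53 and 5.32; Pitx1 was not tested without both.

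Lhx4, the paralogue of Lhx3 that acts in the pouch and in motor neurons and interneurons, differed from the other members. Knockout 16, 29, 42, 49 and 50 had 13.4, 3.15, 2.67, 24.6 and 1.5 CPM, and wild-type 22, 24, 32, 35 and 45 had 0.200, 0.607, 0, 0.0341 and 1.41 CPM. Every knockout library was above every wild-type library, though knockout 50 (95% interval 1.09 to 2.02) and wild-type 45 (1.01 to 1.92) overlapped within counting error. It was the 1 gene of the 8 whose groups did not overlap, against 4.21% of all tested genes, or 1.29% with the knockout higher. The log2 fold change was 4.27 (SE 1.11), and edgeR's quasi-likelihood test gave an adjusted p of 0.137. Without knockout 49 and wild-type 45 it was 4.58 (SE 1.09, edgeR adjusted p = 0.195), so the size did not rest on them. Over those 4 libraries a group, Lhx4 averaged 5.19 ± 5.54 CPM (knockout) and 0.210 ± 0.279 CPM (wild type). DESeq2 called it (adjusted p = 0.0133), and edgeR did not in any alternative (adjusted p 0.0523 without the filter and 0.105 to 0.308 when each library was left out).

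Lhx4 was second highest in knockout 16, where Lhx3 was at 1.10 CPM and Pitx1 at 0.711 CPM, and Cga had 1 count. The same library was highest for genes of central neurons. Pax2 was at 53.6 CPM and Lhx1 at 35.7 CPM in knockout 16, against at most 13.4 and 11.0 CPM in any other library. The cholinergic genes Slc18a3, the vesicular acetylcholine transporter, and Chat, which makes acetylcholine, were also highest there, at 10.1 and 4.0 CPM. Slc18a3 was at 3.86, 2.38, 0.869 and 1.36 CPM in knockout 29, 42, 49 and 50, while the 5 wild-type libraries had 0.367 to 1.02 CPM, and Mnx1, which defines motor neurons, had at most 0.0667 CPM in any library. These genes were picked after Lhx4's values had been seen, and their part in its level was not tested.

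**Figure D5:**
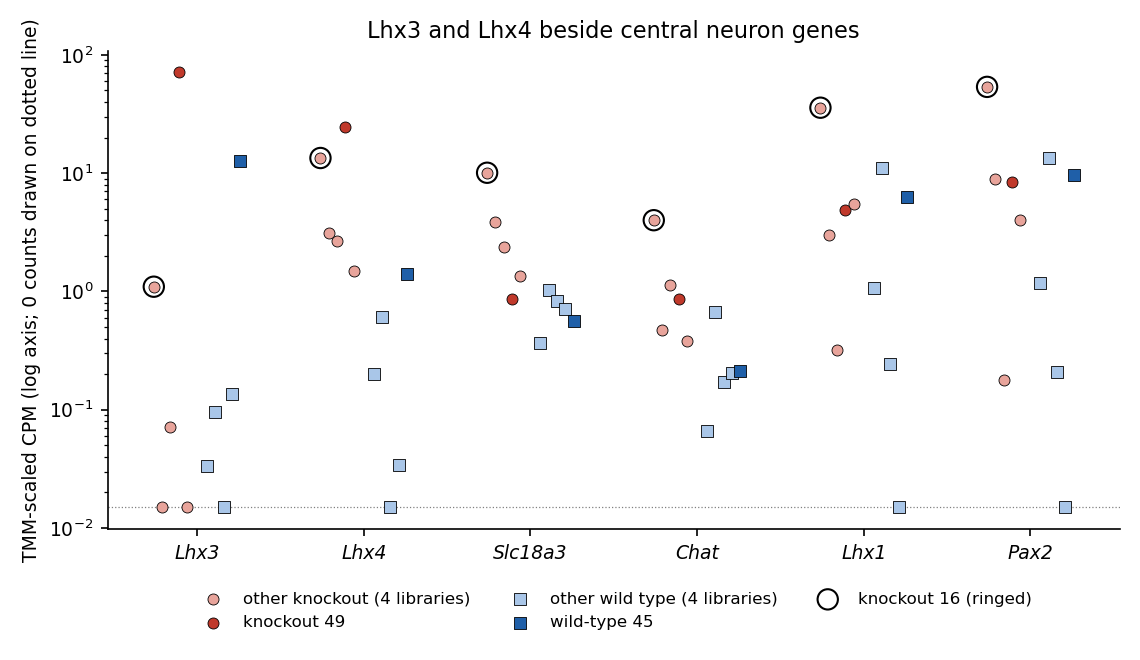
TMM-scaled CPM (log axis) of Lhx3, Lhx4 and 4 central or cholinergic neuron genes, with 1 point per library, circles for knockout and squares for wild type. Knockout 16 (ringed) is the highest library for Slc18a3, Chat, Lhx1 and Pax2 and the second highest for Lhx4, while knockout 49 and wild-type 45 lead for Lhx3.

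The other pituitary and the simple epithelium genes were tested in the same fit. Of 14 tested pituitary genes outside the 8, none passed edgeR's quasi-likelihood test in either direction, with a median log2 fold change of 0.12, and of 16 tested simple epithelium genes none passed, with a median of 1.33. The median over all tested genes was -0.03. At an unadjusted p under 0.05 in that test there were 4 pituitary and 2 simple epithelium genes. Again no share over all genes was counted to set beside them, so nothing is read from these counts either. DESeq2 called 1 pituitary and 0 simple epithelium genes, where it called 637 over all genes. Gata2, a factor of gonadotrophs and thyrotrophs, had the lowest adjusted p of the pituitary genes with a higher level in the knockout, at 5.16 to 20.3 CPM against 2.63 to 6.27 CPM (log2 fold change 1.22, SE 0.37, edgeR adjusted p = 0.212). It was the gene that DESeq2 called (adjusted p = 0.0223). Leaving out knockout 49 and wild-type 45 together left 26 of the 84 genes called over the whole table, all lower in the knockout, with 4 libraries in each group.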

How the data were processed

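RNA was sequenced from 10 trigeminal ganglion libraries. The authors deposited raw counts per Ensembl gene ID, 1 table per library, and bcl2fastq 2.20.0.422, STAR 2.7.10a, featureCounts 1.5.0-p1 and the builds GRCm39 and mm10 are named in the submitters' processing notes. Not given in the sources used here: which build was aligned to, whether strand was used and how multi-mapped reads were counted. Reads shared by paralogues such as Lhx3 and Lhx4 may thus be split or dropped. Symbols matched 52081 of 55414 IDs.

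Genes were kept with filterByExpr (minimum count 10), which left 18005, and scaled with TMM factors. Knockout was set against wild type by edgeR's quasi-likelihood test (R 4.3.3, edgeR 4.0.16, limma 3.58.1) and Benjamini-Hochberg adjustment. DESeq2 1.42.0, other scaling, no filter and leaving out libraries were alternatives. The script was tested on simulated data. Groups come from the genotype label, and p-values measure the spread between libraries, which may be partly technical. Likeness is Pearson's r of log2 CPM (prior count 2) with the mean standardised profile of the 8 genes. Named genes are the 8, the 15 with the highest r, the 15 with the largest gap between the first and second library at r of at least 0.9, and in each list called genes and up to 6 of the most abundant. Others named were chosen after their values were seen. The members and lists were chosen with earlier results of these data known. The smallest chi-square per gene between libraries of a group was 9.88, so none was counted as a duplicate. Results for some genes that the rule would name are not reported here.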

Additional observations from a re-analysis of the deposited data

Results flagged for a closer look

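In groups of 5 libraries, 1 value was called far from the rest when its gap to the nearest exceeded 0.71 of the range. For normally distributed values, chance gives such a gap in about 1 of 20 groups. The values here were CPM without a log scale, some near the floor, so that rate may not hold for them. Of 24 groups of values examined, 16 passed the 0.71 limit. The 8 genes were chosen for high single libraries, so their part of the count is a description. In the knockout, the library apart was knockout 49 for Pitx1 (0.994 of the range), Lhx3 (0.985), Pomc (0.981), Hesx1 (0.975), Cga (0.986), Six6 (0.999) and Epcam (0.982). In the wild type it was wild-type 45 for Pitx1 (0.975), Lhx3 (0.989), Hesx1 (0.868), Cga (1), Six6 (0.92) and Epcam (0.918). Neither Lhx4 in any group nor Pomc in the wild type met it.

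The summed level of the 20 simple epithelium genes stood apart in knockout 49 (493 CPM, 0.884 of the range) and in wild-type 45 (109 CPM, 0.77 of the range). The summed level of the 14 hypothalamic genes stood apart in knockout 16 (112 CPM, 0.875 of the range), where Lhx2 alone was at 58.5 CPM.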

How the results depend on the processing

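No paired analysis was possible because no replicate number occurs in both genotypes. Over all genes, 84 were called, 157 without the filter, 637 with DESeq2 (399 higher, 238 lower) and 26 without knockout 49 and wild-type 45, an alternative added after the data were seen. Leaving out 1 library at a time gave 29 to 113, and fewer than the main count by over 1.5 times without knockout 42, 49 or 50 or wild-type 22, 32 or 35. Called pituitary genes outside the 8 numbered 1 with DESeq2 (Gata2) and 0 to 1 when each library was left out, the 1 being Tshb without wild-type 24 (log2 fold change -1.99, edgeR adjusted p = 0.0431). Simple epithelium genes had no call in any of these fits. Over the single-library omissions the log2 fold changes ran from -2.03 to 6.51 for Pitx1, -0.42 to 3.04 for Pomc, -0.81 to 4.38 for Epcam and 3.53 to 5.32 for Lhx4. The first 3 were below 0 only without knockout 49, except that Pomc was also at -0.25 without both libraries. DESeq2 gave no p for Pitx1, Pomc and Epcam. The summed level of the 8 genes in knockout 49 was 544 CPM when scaled by total counts in place of TMM (513 CPM). Genes at least 5 CPM and above every other library in knockout 49 numbered 40 at 4-fold and 1 at 16-fold, against 7 at 8-fold. Knockout 49 has the fewest reads, so a single count there is 0.290 CPM and Hesx1 and Cga rest on 11 and 20 counts.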

Other observations

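Several genes that stand at least 8-fold above their median of the other libraries in knockout 49 belong to none of the tissue lists above. Of those given here, Dmrta2 was also among the 15 tested genes most similar to the 8. Scg2 was among the 15 with the largest gap between the highest and the next library. Scg2, which encodes the secretory granule protein secretogranin II, reached 130.01 CPM in knockout 49, followed by knockout 16 (23.1 CPM) and wild-type 45 (20.5 CPM), with 6.41 to 10.4 CPM in the other 7 libraries. Igsf1, an immunoglobulin superfamily gene of the pituitary, reached 53.6 CPM in knockout 49, followed by knockout 50 (12.9 CPM) and wild-type 45 (12.2 CPM). Zim1, an imprinted zinc finger gene, reached 498 CPM in knockout 49, followed by wild-type 45 (109.99 CPM) and knockout 42 (92.6 CPM). Dmrta2, a DM-domain transcription factor gene, reached 31.6 CPM in knockout 49, followed by wild-type 45 (4.54 CPM), with at most 2.2 CPM elsewhere.

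Of the 9 listed inner ear genes with at least 10 counts, 2 were highest in knockout 49, against 12.5% over all genes. The rest were highest in other libraries. Oc90, otoconin, was at 6.66 CPM (23 counts) there and at 0.239 to 1.26 CPM in the other 9 libraries. Otog, otogelin, was at 7.53 CPM (26 counts), with 2.52 CPM in knockout 29 and 0.880 CPM in wild-type 45. Pax2, which the inner ear also expresses, was at 8.40 CPM in knockout 49 and highest in knockout 16.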
